A study of Mus musculus with 11 samples.

Results

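The genes described here are 10 transcription factor genes of the Sertoli cell lineage, Sox9, Sox8, Dmrt1, Gata1, Gata4, Gata6, Wt1, Nr5a1, Nr0b1 and Tcf21. They were taken from a list of gene symbols that was chosen with earlier results of these data known. Every probe set annotated with one of these symbols and no other was used, whatever its signal. The rule gave 17 probe sets of the 34958 with a single symbol, and 10 of the 18194 genes on the array. All 10 genes were found, and the probe set read for each gene, the one with the highest mean log2 signal, lay above the array median in all 11 arrays. RNA came from testes of 7-week-old W/Wv mice, whose 2 mutant alleles of the receptor gene Kit leave the testis depleted of germ cells. Every array carried this genotype, so that no array with full spermatogenesis was compared. Pieces of the rete testis (RT), the Sertoli valve (SV) and the convoluted seminiferous tubules (ST) were cut out under a dissecting microscope after trypan blue had been injected through the efferent ducts. Each array was 1 pool of 20 testes, with 3 arrays of RT, 4 of SV and 4 of ST, and ST was the control region.

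Sertoli cells are the somatic cells of the seminiferous epithelium that nurse the germ cells. In the fetal gonad WT1, GATA4 and NR5A1 act in the bipotential ridge before SOX9 directs supporting cells to the Sertoli fate, and SOX8, a close relative of SOX9, and DMRT1 help to hold that fate after birth. The SV is the cone of modified Sertoli cells where a tubule meets the rete testis, while the rete testis is lined by a separate epithelium that also descends from the gonadal ridge. The comparison asks which of the 10 factors keep their ST level in the SV and RT pieces. Signals are MAS5.0 values, a linear brightness of a probe set with no physical unit, so levels of different genes were not compared, and brightness was used only to choose among the probe sets of a gene and to name the dim ones.

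Across the whole series, the median signal of an array was 65.8 to 110.4, and no 2 arrays held the same values. Replicates 1 and 2 differed from replicates 3 and 4 in every region. The ratio of 3′ to 5′ probe sets of Actb, which rises as RNA breaks down, was 1.31 to 1.43 in replicates 1 and 2 and 1.73 to 2.12 in replicates 3 and 4. The same ratio of Gapdh did not separate the sets, at 0.661 to 0.868 and 0.609 to 0.802. Because the Actb ratio differed, values within each set are given for the genes that changed. Markers fit the labels of the pieces: 11 of 12 rete testis epithelium genes were higher in RT than in ST, and 8 of 12 in SV. The summed signal of these 12 genes was 29573 to 42013 in RT, 4856 to 10536 in SV and 921 to 1529 in ST, so the SV pieces carried rete signal as well. Part of a list of genes of the neighbouring efferent duct and epididymis epithelium moved with them. Of 8 genes 5 were higher in RT (Wfdc2, Foxj1, Cftr, Aqp1 and Slc9a3, with a median log2 difference of 4.71 over the list) and 4 in SV. The other 3, Lcn5, Lcn8 and Elf5, were not called, and their mean log2 signal was below 6.32, the median over all probe sets, in every region. The summed signal of the 8 genes was 7186 to 13104 in RT, 669 to 1824 in SV and 210.5 to 292 in ST. Of 8 endothelial genes 2 were higher in RT and 1 in SV, and of 8 macrophage genes 1 and 0, with none lower. Over all genes, 12.5% were higher and 7.34% lower in RT, and 2.39% and 0.0769% in SV. The summed endothelial signal was 4438 to 5298 in RT, 1626 to 3862 in SV and 926 to 1622 in ST, so that ST was lowest. The summed macrophage signal was 18111 to 23822 in RT, 16987 to 23187 in SV and 15095 to 17761 in ST. Since each piece is a mixture, fewer cells of a type and less RNA per cell cannot be told apart.

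RefSeq promoter windows (build GRCm38.p6, 250 bases before to 50 bases after the start of the gene) were at hand for 4 of the 10 genes. All 4 are shown, whatever the call of the gene. Of these genes 2 (Sox8 and Gata1) fell in RT and 2 (Nr0b1 and Tcf21) were not called. Capitals mark the letters of a motif searched on both strands.
Sox8, chr17:25570637-25570936, minus strand: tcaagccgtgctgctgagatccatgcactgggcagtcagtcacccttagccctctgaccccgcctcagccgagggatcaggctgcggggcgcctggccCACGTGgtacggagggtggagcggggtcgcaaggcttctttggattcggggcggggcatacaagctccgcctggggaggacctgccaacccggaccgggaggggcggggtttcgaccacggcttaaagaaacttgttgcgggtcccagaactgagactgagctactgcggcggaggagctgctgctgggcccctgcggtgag
Gata1, chrX:7967861-7968160, minus strand: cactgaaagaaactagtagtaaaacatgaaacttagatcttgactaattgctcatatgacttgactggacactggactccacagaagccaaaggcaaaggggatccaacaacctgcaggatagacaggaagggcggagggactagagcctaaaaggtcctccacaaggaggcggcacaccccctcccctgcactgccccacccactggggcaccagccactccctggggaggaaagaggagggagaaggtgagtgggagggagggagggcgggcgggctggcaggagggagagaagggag
Nr0b1, chrX:86191525-86191824, plus strand: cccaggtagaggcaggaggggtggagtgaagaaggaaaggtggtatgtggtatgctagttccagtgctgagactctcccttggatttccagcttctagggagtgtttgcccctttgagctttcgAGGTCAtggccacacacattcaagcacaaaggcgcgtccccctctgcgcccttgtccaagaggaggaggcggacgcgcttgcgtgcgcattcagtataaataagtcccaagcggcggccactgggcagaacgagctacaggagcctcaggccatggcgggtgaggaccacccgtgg
Tcf21, chr10:22820094-22820393, minus strand: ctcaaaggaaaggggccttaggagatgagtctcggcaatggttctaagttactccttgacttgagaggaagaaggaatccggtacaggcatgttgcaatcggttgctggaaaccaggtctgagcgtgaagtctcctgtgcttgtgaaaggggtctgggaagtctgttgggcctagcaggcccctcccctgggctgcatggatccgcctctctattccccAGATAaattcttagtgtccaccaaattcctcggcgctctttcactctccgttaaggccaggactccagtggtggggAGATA

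The Sox8 window held the E-box CACGTG, read by helix-loop-helix factors, at bases 99 to 104, and 7.15% of 32851 RefSeq windows of this length hold these letters. The Nr0b1 window held AGGTCA, the core of the site bound by NR5A1, at bases 125 to 130 (16.3% of windows). The Tcf21 window held the GATA motif AGATA at bases 220 to 224 and 296 to 300 (29.6% of windows). The SOX motif ACAAT (31% of windows) and the WT1 and EGR motif GCGGGGGCG (2.91%) were in none of the 4 windows, and none of the 5 motifs was in that of Gata1. Gata1 is known to be read from a separate upstream first exon in Sertoli cells, and whether the window holds that start was not tested. The motifs are descriptions of letters in a window and say nothing of binding.

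In RT, 3 of the genes fell. Dmrt1, Sox8 and Gata1 dropped to 12.1%, 22.4% and 14.5% of their ST level, whereas Sox9, Gata4, Gata6, Wt1 and Tcf21 stayed within 2-fold of it. Thus 3 of 10 genes were lower and 0 higher in RT by limma (adjusted p under 0.05 over all 45101 probe sets, and over 2-fold), beside 7.34% of all genes lower and 12.5% higher. At an unadjusted p under 0.05, 5 were lower and 1 (Gata6) was higher, beside 19.4% and 24.8% of all genes. The methods' t-test also called 3 lower and 0 higher, with and without adjustment. The RT arrays lay wholly below those of ST in 4 genes, these 3 and Nr5a1, beside 18.5% of all genes. The median log2 difference of the 10 genes from ST was -0.47 in RT, beside 0.08 over all genes.

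Dmrt1 encodes a DM domain factor that keeps Sertoli cells from turning toward the granulosa fate and is also used by spermatogonia. It read 373, 599 and 1088 in the RT arrays, 2606, 3669, 4405 and 2984 in the SV arrays, and 5179, 5616, 4667 and 5200.1 in the ST arrays. The 3 regions did not overlap, with RT lowest and ST highest, and RT replicate 3 was the RT array closest to the others. The mean was 5166 ± 389 over the 4 ST arrays, 3416 ± 792 over the 4 SV arrays and 687 ± 365 over the 3 RT arrays (± SD). RT was 8.26-fold lower than ST, with a 95% interval of 7.96% to 18.4% of the ST level. Within replicates 1 and 2 the log2 difference of RT from ST was -3.51 ± 0.23 (SE; limma adjusted p = 1.63e-05), and within replicates 3 and 4, with 1 RT array, -2.18 ± 0.27 (limma adjusted p = 0.0219).

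Sox8 encodes an SRY-related factor of the same subgroup as SOX9. It gave 454, 591 and 637 in RT, 1414, 1878, 1914 and 1654 in SV, and 2844, 2591, 2365 and 2143 in ST. Again no array of one region reached into another. The log2 difference of RT from ST was -2.16 ± 0.16 (limma adjusted p = 1.29e-06). It was -2.39 within replicates 1 and 2 and -1.82 within replicates 3 and 4, both past the threshold.

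Gata1 encodes the zinc finger factor best known from red cells and megakaryocytes, which is also made by Sertoli cells. It read 313, 377 and 749.7 in RT, 1621, 1489, 3175 and 1897 in SV, and 3175, 2509, 3599 and 3103 in ST. RT lay below every other array, while SV replicate 3 reached into the ST range. RT differed from ST by -2.78 ± 0.29 on the log2 scale (limma adjusted p = 1.81e-05), by -3.04 within replicates 1 and 2 and by -2.16 within replicates 3 and 4.

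**Figure D1:**
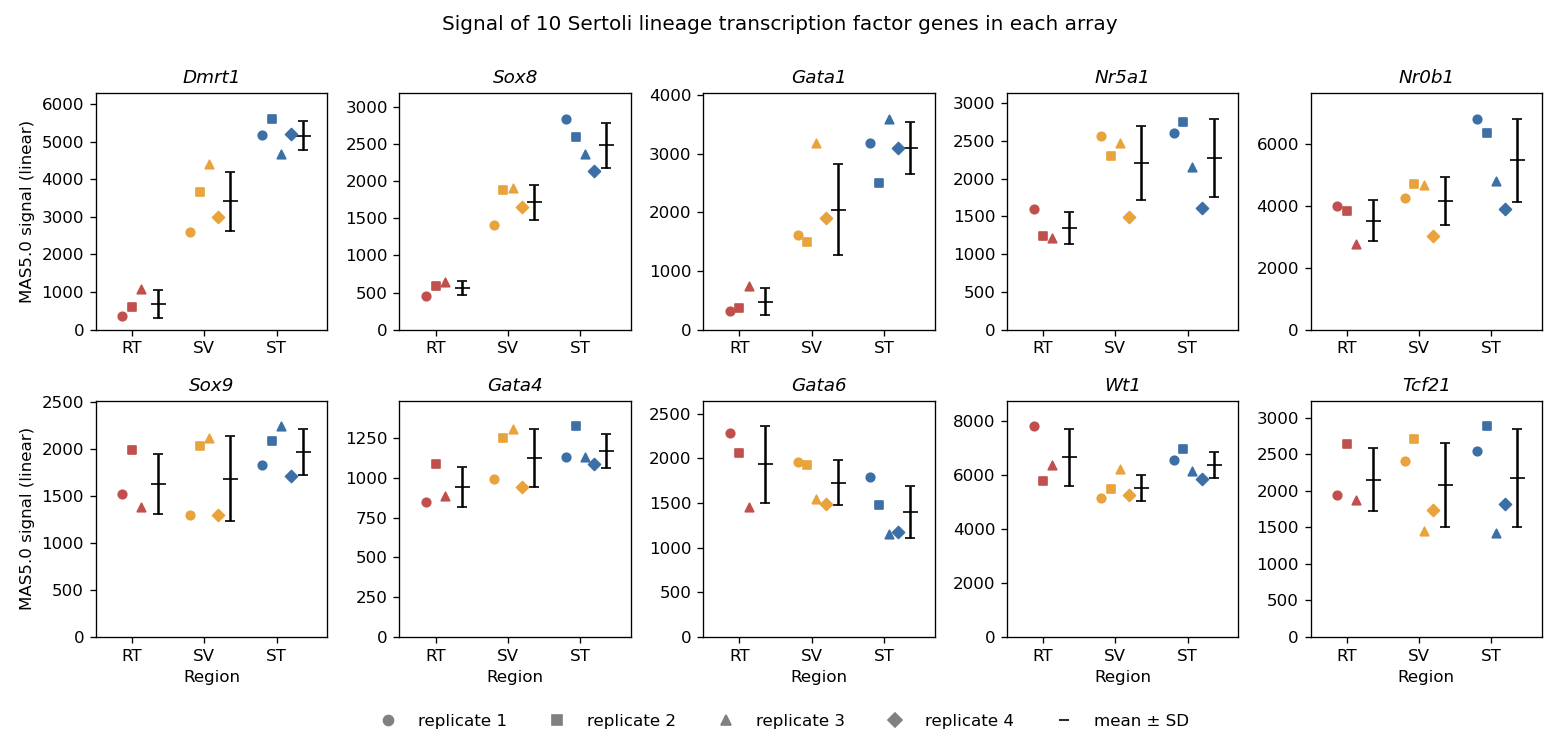
MAS5.0 signal (linear, y axes from 0) of the brightest probe set of each of the 10 genes by region, with 1 point for each array, its shape giving the replicate number, and bars for the mean ± SD of 3 RT, 4 SV and 4 ST arrays. Dmrt1, Sox8 and Gata1 were lowest in all 3 RT arrays, while the RT arrays of Sox9, Gata4, Gata6, Wt1 and Tcf21 lay among or close to those of ST.

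Markers of other cells moved with part of the pattern. Of 10 germ cell genes, 7 were lower in RT and 1 (Gfra1) was higher, and the median of the list lay between -4.35 and -2.51 in the RT arrays on the log2 scale against the ST mean. The summed signal of the 10 genes was 3392 to 3969.7 in RT, 2382 to 4309.9 in SV and 3174 to 7519.5 in ST, so that by this sum RT overlapped ST. Most of the RT sum was Gfra1, which read 2379, 2328 and 2698 in RT and 53.7 to 173 in ST. The overlap therefore does not describe the 7 lower genes. No gene of the list was at 0. Among the 7 is Dazl, which encodes an RNA-binding protein of germ cells (-4.04 ± 0.40, limma adjusted p = 1.10e-05). In ST replicates 1 to 4 the germ cell median was -1.23, 0.18, 0.30 and 0.48, and Dmrt1 read 5179, 5616, 4667 and 5200.1. The part of germ cells in the Dmrt1 difference between RT and ST was not tested. Of 9 erythroid, megakaryocyte and mast cell genes set beside Gata1, 5 were dim, with a mean log2 signal in every region below 6.32, the median over all probe sets. Alas2, the heme synthesis enzyme of red cell precursors, was lower in RT (-1.13 ± 0.27) and the platelet integrin gene Itga2b was higher (1.69 ± 0.22). The summed signal of these 9 genes was 2611 to 3493 in RT, 2513 to 3091 in SV and 2106 to 2541 in ST, so that the range in RT lay above that in ST. Most of this sum was 1 gene, Pf4, at 1817 to 2519 in RT and 1303 to 1637 in ST. Of 8 genes of peritubular myoid cells and smooth muscle, Cnn1 (-2.54 ± 0.61), Acta2 (-1.65 ± 0.24) and Actg2 (-1.30 ± 0.38) were lower in RT and Smtn was higher (1.58 ± 0.24), and 0 were called in SV, with 0 at an unadjusted p under 0.05. Their summed signal was 4418 to 8046 in RT, 9740.4 to 11433 in SV and 9561 to 15994 in ST, so that RT was lowest here as for the 3 factors. The part of these cells in the RT differences was not tested.

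The 2 nuclear receptor genes gave intermediate values. Nr5a1 encodes SF1, a driver of gonad formation and of steroid synthesis, which is made by both Sertoli and Leydig cells. It read 1595, 1238 and 1218 in RT, 2565, 2301, 2473 and 1497 in SV, and 2609, 2750.4, 2149.8 and 1606 in ST. All RT arrays lay below all ST arrays, with RT replicate 1 next to ST replicate 4. The log2 difference of RT was -0.74 ± 0.22 (limma adjusted p = 0.0234), or 60% of the ST level with a 95% interval of 43.4% to 83.1%, so that it passed the p threshold without reaching 2-fold.

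Nr0b1 encodes DAX1, a receptor without a known ligand that holds NR5A1 back. It gave 3986, 3833 and 2772 in RT, 4255, 4714, 4672 and 3041 in SV, and 6826, 6353, 4824 and 3904 in ST. RT and ST overlapped in 1 ST array. RT was at 65.2% of ST (log2 difference -0.62 ± 0.22, limma adjusted p = 0.0526). When each array was instead centred on its own median, which moves the median of all probe sets in RT from 0.13 to -0.29, Nr5a1 (-1.16, limma adjusted p = 0.00611) and Nr0b1 (-1.04, limma adjusted p = 0.0150) passed both thresholds, and the count of genes lower in RT was 5. Whether these 2 genes fell by more than 2-fold therefore depends on the scaling. Of 5 Leydig cell genes measured, which share NR5A1 as a regulator, limma called 0 in RT, with 0 at an unadjusted p under 0.05, and the log2 differences ran from -0.24 (Star) to 0.67 (Hsd17b3). The summed signal of these Leydig cell genes was 33576 to 43253 in RT, 28088 to 68173 in SV and 21869.5 to 47708 in ST, so that the 3 regions overlapped. In SV 0 of the 5 were called against ST or RT, 2 were higher than in ST at an unadjusted p under 0.05 and 0 lower.

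The other 5 genes kept their ST level in RT, where kept means that the 95% interval of the log2 difference lies wholly within 1 unit of 0, that is within 2-fold. This count of 5 of 10 is near the share of all genes that are not dim, of which 49.1% were kept (34.9% of all 18194 genes). Sox9, the testis-determining SRY-related gene, gave 1517, 1991 and 1377 in RT, 1297, 2031, 2115 and 1291 in SV, and 1822, 2079.8, 2244 and 1708 in ST. The regions overlapped, and RT was at 82.4% of ST (95% interval 60.8% to 112%). Wt1, a zinc finger gene needed for the gonadal ridge and for Sertoli cell maintenance, gave 7833, 5796 and 6374 in RT, 5156, 5474, 6234 and 5248 in SV, and 6556, 6961, 6149 and 5844 in ST. RT held both the highest and one of the lower values, and its level was 104% of ST (85.2% to 127%).

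Gata4, which acts on Amh and other Sertoli genes, gave 849, 1088 and 889 in RT, 993, 1253, 1311 and 945 in SV, and 1132, 1328, 1134 and 1086 in ST. Only RT replicate 2 reached the ST range, and the level in RT was 80.3% of ST (64.0% to 101%). Its relative Gata6 gave 2285, 2061 and 1455 in RT, 1955, 1928, 1539 and 1485 in SV, and 1785, 1473, 1157 and 1176 in ST. In each region the arrays of replicates 1 and 2 were above those of replicates 3 and 4. RT was at 138% of ST (103% to 184%; limma adjusted p = 0.101), and the log2 difference was 0.47 as deposited and 0.04 after median centring. Tcf21, a helix-loop-helix gene of the gonadal mesenchyme, gave 1940.0, 2647 and 1872 in RT, 2406, 2715, 1455 and 1743 in SV, and 2551, 2889.8, 1424 and 1825 in ST. Its 3 ranges lay over each other, with RT at 102% of ST (68.9% to 150%).

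The direction of the small differences depended on the scaling for Wt1 and Tcf21 (-0.37 and -0.40 in RT after median centring), and only 2 of the 10 genes were kept in RT under that scaling.

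**Figure D2:**
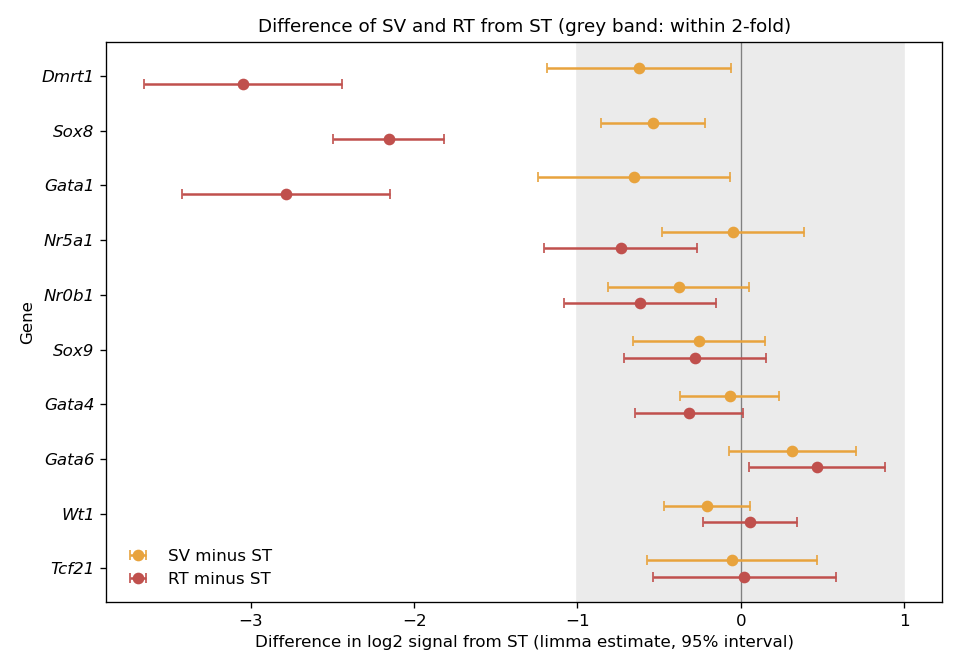
Difference in log2 signal from ST of SV (orange) and RT (red) for the 10 genes, as the limma estimate with its 95% interval over 11 arrays, with a grey band for differences within 2-fold. In RT the intervals of Dmrt1, Sox8 and Gata1 lie below the band, those of Nr5a1 and Nr0b1 cross its lower edge, and the other 5 lie inside it.

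In SV, none of the 10 genes was called. Limma called 0 higher and 0 lower, beside 2.39% of all genes higher and 0.0769% lower, and the methods' t-test with its 2-fold threshold called 0 too. At an unadjusted p under 0.05 the 3 genes that fell in RT, Dmrt1, Sox8 and Gata1, were lower in SV and 0 genes were higher, beside 6.41% of all genes lower and 12% higher. Sox8 was at 68.9% of ST (95% interval 55.3% to 85.8%; limma adjusted p = 0.0843), and every SV array lay below every ST array. Dmrt1 was at 65.0% (44.0% to 95.8%; limma adjusted p = 0.309), also without overlap. Arrays of SV lay wholly below those of ST in 2 of 10 genes, beside 3.64% of all genes. Gata1 was at 63.6% (42.3% to 95.7%; limma adjusted p = 0.310), and at a log2 difference of -0.89 in place of -0.65 without SV replicate 3. With the replicate number as a block, the limma adjusted p was 0.0232 for Sox8, 0.0196 for Gata1 and 0.0900 for Dmrt1, without reaching 2-fold.

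In SV 8 of the 10 genes were kept within 2-fold, all but Dmrt1 and Gata1, beside 75.7% of the genes that are not dim and 54.1% of all genes. Nr5a1 (96.9%), Tcf21 (96.4%) and Gata4 (95.5%) had the smallest differences from ST. Sox9 was at 83.9%, Wt1 at 86.6%, Nr0b1 at 76.9% and Gata6 at 125%. The median log2 difference over the 10 genes was -0.23, with 9 of 10 below 0, beside 0.02 over all genes. The 2 comparisons with ST share the ST arrays, so the values of a gene in SV and in RT are not independent.

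Set against RT directly, SV held more of the same 3 genes. Dmrt1 was 5.36-fold higher in SV than in RT (log2 difference 2.42 ± 0.28, limma adjusted p = 2.47e-04), Gata1 4.38-fold (2.13 ± 0.29, adjusted p = 5.35e-04) and Sox8 3.07-fold (1.62 ± 0.16, adjusted p = 1.59e-04). These 3 of 10 were the higher ones, beside 4.39% of all genes, and 0 were lower (6.41%), with 0 lower at an unadjusted p under 0.05 (18.2% of all genes) and by the methods' t-test. Within replicates 3 and 4, where RT has 1 array, the log2 differences of Dmrt1, Gata1 and Sox8 were 1.74, 1.71 and 1.48 and none was past the threshold (limma adjusted p = 0.129, 0.131 and 0.129). Nr5a1 was at 161% of RT in SV (117% to 223%; limma adjusted p = 0.0507). The Leydig cell genes had a median log2 difference of 0.53 in the same comparison, with 4 of 5 above 0 and 1 (Cyp11a1, 0.87 ± 0.33) at an unadjusted p under 0.05, and their part in the Nr5a1 value was not tested. Nr0b1, Sox9, Gata4, Gata6, Wt1 and Tcf21 had intervals within 2-fold. That is 6 of 10 genes, beside 60.1% of the genes that are not dim and 42.6% of all genes.

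Of the 10 genes, 5 had more than 1 probe set, and the other probe sets of Sox9, Gata4 and Tcf21 were called in no comparison. The second Gata4 probe set (1418864_at) was at 66.7% of ST in RT (42.2% to 105%), so by it Gata4 was not kept there. It was at 85.8% of ST in SV (56.2% to 131%), which is kept. In SV against RT it was at 129% (81.6% to 203%), not kept. The second Tcf21 probe set (1458887_at) was kept, at 84.6% of ST in RT and 81.8% in SV. A second Sox9 probe set (1424950_at) was at 73.9% in RT (limma adjusted p = 0.0629) and without overlap with ST, where the first overlapped. The third (1433889_at) was dim at 5.33 to 39.4. For Gata6, the faint probe set 1443081_at gave 105, 94.9 and 80.5 in RT, 67.2, 16.5, 51.6 and 37.9 in SV, and 28.4, 19.3, 18.2 and 15.5 in ST. All ST values were below 32, so the size of the fold is not well measured. The log2 difference of RT from ST was 2.23 (limma adjusted p = 0.00454), and 1.54 with signals under 32 set to 32 (limma adjusted p = 0.00117). It was as large in fewer arrays, 2.09 within replicates 1 and 2 (limma adjusted p = 0.0582) and 2.26 within replicates 3 and 4 (limma adjusted p = 0.131), without passing the threshold there. The brighter Gata6 probe sets were at 138% and 123%. Counting any probe set, 1 gene was higher in RT, and it rests on this faint probe set.

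For Nr5a1, the dim probe set 1421730_at gave 2.05, 2.88 and 3.52 in RT, 20.4 to 30.6 in the 4 SV arrays, and 12.7, 5.96, 2.49 and 2.21 in ST. The log2 difference of SV from RT was 3.18 (limma adjusted p = 0.00985) and 2.97 without RT replicate 1 (limma adjusted p = 0.0520). All these values were below 32, and the difference was 0 with signals under 32 set to 32. The bright Nr5a1 probe set differed by 0.69 on the log2 scale between the same regions. Which of the probe sets reads the main transcript of a gene was not tested.

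**Figure D3:**
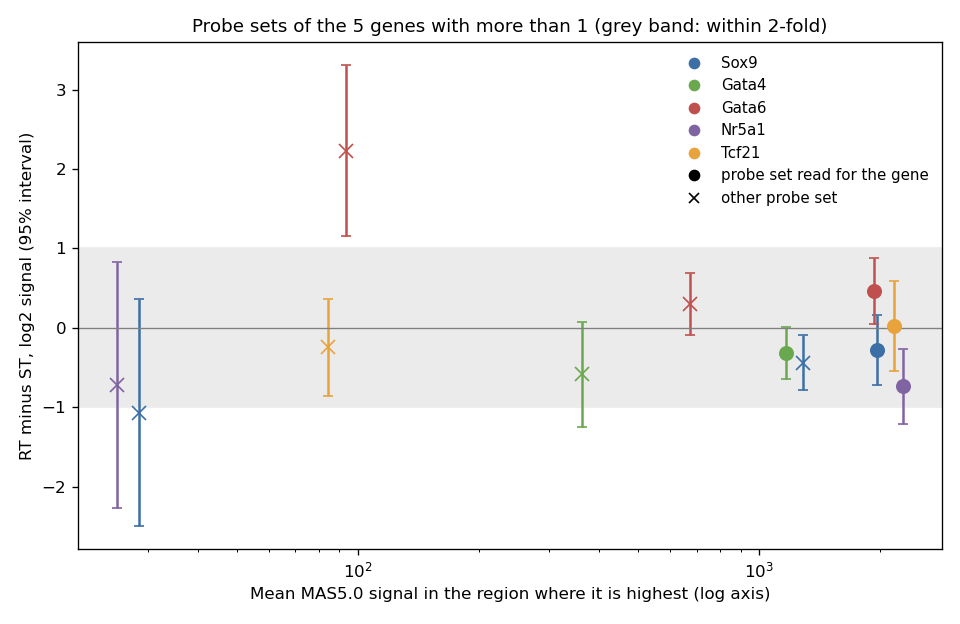
Log2 difference of RT from ST (limma estimate with its 95% interval, y axis) of every probe set of the 5 genes with more than 1, against the mean MAS5.0 signal in the region where that probe set is highest (log x axis). Discs mark the probe set read for the gene and crosses the others. The Gata6 probe set at a mean of 93.5 in RT lies at 2.23, above the 2-fold band, while the brighter Gata6 probe sets lie inside it.

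Some factors that work with these genes differed by region as well. Of 20 genes of a list of gonadal transcription partners, 16 were measured, 4 of them dim. In RT 6 were higher and 2 lower, beside 12.5% and 7.34% of all genes. The median log2 difference was -0.04, beside 0.08 over all genes. The cofactor genes of the GATA factors moved in opposite directions. Zfpm1, which encodes FOG1, the partner of GATA1, gave 231, 311 and 394 in RT, 578, 908, 1257 and 610.2 in SV, and 1079, 1148, 1350.5 and 871 in ST. RT was lowest without overlap, as for Gata1 (-1.85 ± 0.27, limma adjusted p = 1.96e-04). Zfpm2, which encodes FOG2, the partner of GATA4 in the gonad, gave 1529, 1405 and 1241 in RT, 769.8, 508, 334 and 548 in SV, and 165, 146, 138 and 142 in ST. It was higher in RT (3.24 ± 0.23, limma adjusted p = 9.59e-07) and in SV (1.81 ± 0.21, limma adjusted p = 4.12e-04). Gata4 was kept in both by its brightest probe set, but in RT not by its second.

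The others higher in RT were Emx2, a homeobox gene of the urogenital ridge (6.95 ± 0.38), Runx1 (1.46 ± 0.47), the estrogen receptor gene Esr1 (1.37 ± 0.33), Nr2f2 (1.21 ± 0.23) and Lhx9 (1.15 ± 0.17). Cited2, a coactivator gene that works with Wt1 and Nr5a1 in the early gonad, was lower (-1.59 ± 0.17). Emx2 had a signal of 22.8 ± 5.32 in ST, 374 ± 217 in SV and 2817 ± 703 in RT (SD, n = 4, 4 and 3). Since its ST values were all below 32, its log2 differences depend on how low signals are treated, and with signals under 32 set to 32 they were 6.43 in RT and 3.37 in SV. In SV, Emx2 (3.89 ± 0.35) and Zfpm2 were the 2 partners called higher and 0 were lower, beside 2.39% and 0.0769% of all genes. At an unadjusted p under 0.05, 2 were lower, beside 6.41% of all genes. After median centring 2 partners, Emx2 and Zfpm2, were higher in RT.

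Many products of Sertoli cells also fell in RT. Of 24 such genes 21 were measured, 1 of them dim. In RT 12 were lower and 1 (Tesc) was higher, beside 7.34% and 12.5% of all genes. Their median log2 difference was -1.44, beside 0.08 over all genes. Fshr, the receptor gene for follicle-stimulating hormone, gave 145, 157 and 317 in RT, 429, 511, 1048 and 776 in SV, and 1429, 1215, 1349.7 and 1384 in ST, a fall of RT without overlap (-2.80 ± 0.31, limma adjusted p = 2.31e-05). The median of the 21 genes in each array, against the ST mean on the log2 scale, was -1.84 to -1.003 in RT and -0.87 to -0.06 in SV. Taken relative to that median in the same RT array, Dmrt1 was at -1.94 to -1.24, Gata1 at -1.51 to -1.03 and Sox8 at -0.95 to -0.55, so that these 3 genes were below the median of the products in all 3 arrays. Single products fell further, among them Rhox5 (-3.56), Amh (-3.45) and Tsx (-3.40), each with a larger difference of RT from ST than that of Dmrt1 (-3.05). The RT values of Amh (6.31, 15.1 and 30.3) were all below 32, so the size of its fold and its place above Dmrt1 are not well measured. Sox9 was at 0.50 to 1.54, Gata4 at 0.61 to 1.42, Wt1 at 1.01 to 2.14, Gata6 at 1.08 to 2.57 and Tcf21 at 0.84 to 1.86, all above it. Nr5a1 (0.13 to 1.36) and Nr0b1 (0.06 to 1.42) were the lowest of the 7 genes above it. These positions are descriptions over 3 arrays and carry no test.

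In the SV arrays the same measure was -0.38 to -0.10 for Dmrt1, -0.31 to 0.06 for Sox8 and -0.66 to 0.10 for Gata1, nearer to the median of the products than in RT. The products themselves had 1 gene (Tesc) called higher and 0 lower in SV. An unadjusted p under 0.05 was found for 5 lower and 3 higher genes, beside 6.41% and 12% of all genes. Tissue types other than Sertoli cells also make some of the kept factors, and the genes of interstitial fibroblasts, which express Tcf21, had a median of 0.74 to 0.97 in the RT arrays and -0.22 to 0.31 in the SV arrays against the ST mean. Of 8 fibroblast genes 1 (Col1a1) was called higher in RT, and before adjustment p was under 0.05 for 6 that were higher and 1 that was lower. Their summed signal was 39083 to 48806 in RT, 24099 to 36546 in SV and 21433 to 34956 in ST, with RT above the other regions in every array. Of 8 mesothelial genes, set beside Wt1, which the mesothelium also expresses, 2 (Upk3b and Gpm6a) were higher and 1 (Bnc1) was lower in RT, while the defining marker Msln was dim in every region. The summed mesothelial signal was 1733 to 2043 in RT, 867 to 1400.3 in SV and 547 to 847 in ST. The part of these cells in the RT signal of the kept factors was not tested.

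**Figure D4:**
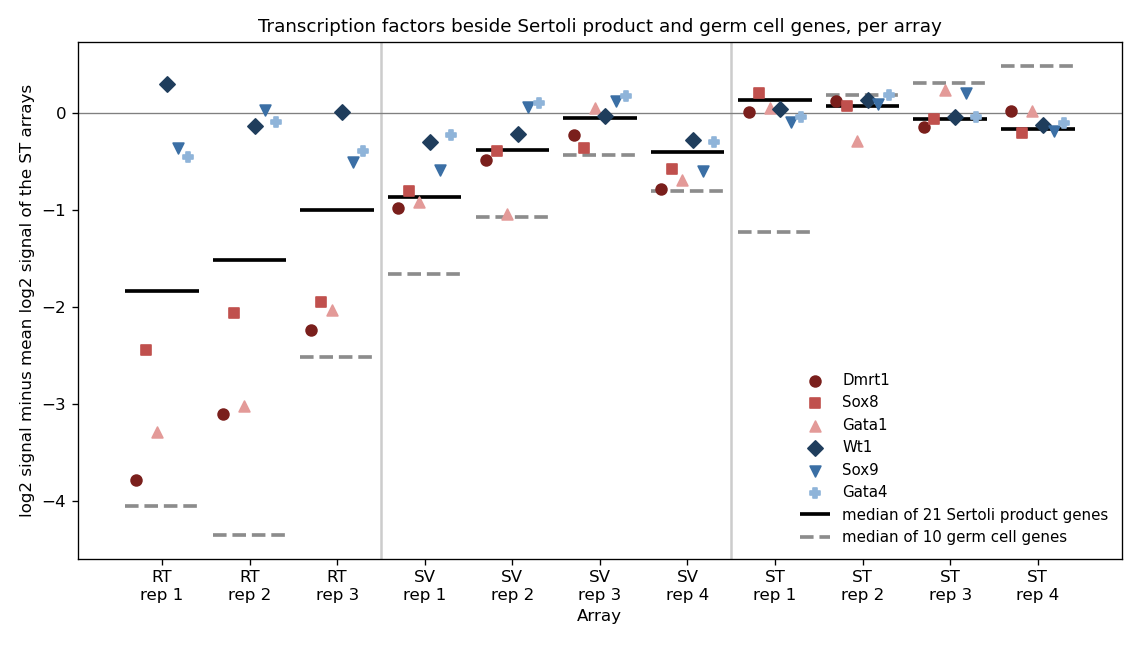
Log2 signal in each array minus the mean log2 signal of the 4 ST arrays (y axis), for 6 of the transcription factor genes (points) and as the median of 21 Sertoli product genes (solid bars) and 10 germ cell genes (dashed bars). In the 3 RT arrays Dmrt1, Sox8 and Gata1 lie below the Sertoli product median and above the germ cell median, and Wt1, Sox9 and Gata4 lie near 0.

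Over the 11 arrays, the genes whose log2 signal followed that of the 3 fallen factors most closely were sought among 11591 other genes with a mean above the median of all probe sets. For Dmrt1 they were Exoc3l2, Ct55 and Elovl2 (Pearson r = 0.999, 0.996 and 0.996). For Sox8 they were Mpeg1, Smpx and Nt5c (r = 0.996, 0.994 and 0.994), and for Gata1 they were Xpnpep1, Kcnk6 and the cell cycle kinase gene Cdk1 (r = 0.996, 0.996 and 0.994). The arrays fall into 3 regions, so these values describe a shared order of RT, SV and ST and carry no test.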

How the data were processed

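Pieces of RT (3 arrays), SV (4) and ST (4) from W/Wv mice aged 7 weeks, 20 testes to an array, were measured on Affymetrix Mouse Genome 430 2.0 arrays, grouped by their labels. The authors purified RNA with the RNeasy Micro Kit, labelled cRNA by the GeneChip 3′ IVT Plus kit, then derived MAS5.0 signals; the submitters' notes name MAS5. The deposited values are intensity on a linear scale, scaled by the authors so that the mean without the top and bottom 2% is 500.0 in each array, and no detection calls were used, so precision is limited by the number of arrays. The labels call the arrays biological replicates, and p-values measure the spread between pools. Such scaling assumes a like total signal in each region.

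Log2 signals of 45101 probe sets were fitted here for all 11 arrays by lmFit and trended eBayes of limma 3.58.1, under R 4.3.3, without a filter or added constant, and adjusted by Benjamini-Hochberg over all probe sets. A call needed an adjusted p under 0.05 and over 2-fold. SV was compared with ST, RT with ST, and SV with RT. Each gene was read from its probe set with the highest mean log2 signal, and a gene was called dim where its mean log2 signal was under 6.32, the median over all probe sets, in every region. Of the probe sets, 34958 had 1 symbol in the array annotation, 932 several and 9211 none. The study's threshold was applied as the methods' t-test on log2 signal.

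All 10 factors are named, and so are their probe sets other than the one read for the gene. The 3 genes most like each called factor are named too. Of each other list, up to 4 called genes per comparison with the largest difference are named. Runx1, Esr1, Nr2f2, Lhx9, Dazl, Star, Hsd17b3, Cyp11a1, Pf4, Msln, Lcn5, Lcn8 and Elf5 were named after their values were seen. The factors and lists were chosen with earlier results of these data known. List genes without a probe set of their own were not analysed here.

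As alternatives, arrays were centred on their median or quantile normalized, 32 was added to each signal or used as its lowest value, dim probe sets, the intensity trend, the fold threshold or 1 array at a time were dropped, any probe set of a gene was counted, the 2 regions compared were fitted alone, the replicate number or its set (1 and 2, 3 and 4) was blocked, each set was fitted alone, and the methods' t-test was run. Reading the kept counts and the lists under them was added after seeing the data. The fits were tested on simulated data. Promoter windows are from RefSeq (GRCm38.p6). Plots were made in matplotlib 3.10.9 (Python 3.11.15).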

Additional observations from a re-analysis of the deposited data

Results flagged for a closer look

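The Gata6 probe set 1425463_at had a signal of 704 in SV replicate 1, apart from 557, 564 and 552 in the other SV arrays. Its gap to the nearest array was large for its range by Dixon's test. Of 34 sets of 4 arrays tested over the 17 probe sets, 1 stood out in this way, and chance gives about 1 in 20. The brightest Gata6 probe set had 1955 in the same array and 1928 in SV replicate 2, with no such gap. The log2 difference of SV from ST of this probe set was 0.14 ± 0.17 (limma adjusted p = 0.816).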

How the results depend on the processing

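Dmrt1, Sox8 and Gata1 were past both thresholds in RT against ST in each of the 22 alternatives that give a value per gene (Dmrt1 from -3.51 to -2.18), and leaving out any 1 array left the counts of the 10 genes at 3 lower in RT, 0 higher in RT, 0 called in SV, 3 higher in SV than in RT, 8 kept in SV and 5 kept in RT. Median centring raised the count lower in RT to 5 and cut the count kept from 5 to 2 in RT and from 8 to 6 in SV. With any probe set counted, 1 gene was higher in RT, and within replicates 3 and 4 alone 0 genes were higher in SV than in RT. The cause of these changes was not tested, but the last setting holds 1 RT array, assumed to vary like the other regions.

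Same-numbered arrays of different regions were correlated at 0.0692 to 0.190 after removal of the region means (0.277 to 0.670 over probe sets with a mean above the median), and 10 of 11 arrays correlated best with their own number. Over all probe sets, arrays of other numbers from the same set of replicates were correlated about as much, at 0.0698 to 0.178. Over probe sets with a mean above the median their range was lower, at 0.168 to 0.477, but overlapped that of the same numbers. The labels name no shared pool, and over all probe sets not every same-number correlation was over 0.1, so the numbers were not taken as pairs. Over probe sets with a mean above the median every same-number correlation was over 0.1, so a shared pool remains possible. With the replicate number as a block, the log2 differences of RT from ST were -3.07 for Dmrt1, -2.79 for Gata1 and -2.20 for Sox8, and no call of a factor changed. Under the block the p-values of smaller differences fell. In RT against ST, Nr0b1 was at -0.77 (limma adjusted p = 4.01e-04), Nr5a1 at -0.90 (5.40e-05), Gata4 at -0.37 (0.0174) and Gata6 at 0.39 (0.00628). In SV against ST, Sox8 was at -0.54 (limma adjusted p = 0.0232), Gata1 at -0.65 (0.0196) and Gata6 at 0.32 (0.0438). In SV against RT, Nr5a1 was at 0.86 (limma adjusted p = 2.02e-04) and Nr0b1 at 0.39 (0.0365). None of these differences was past 2-fold.

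Differences near 0 that changed sign were never called. In RT against ST, Wt1 was -0.37 after median centring and -0.0038 in replicates 1 and 2 alone, and Tcf21 was -0.40 after median centring, -0.045 with the replicate block, -0.078 with the block of 2 sets and -0.26 in replicates 1 and 2 alone. In SV against ST, replicates 3 and 4 alone gave 0.0039 for Gata4 and 0.0504 for Nr5a1. In SV against RT, median centring gave 0.17 for Gata6, 0.0523 for Wt1 and 0.24 for Tcf21, quantile normalization gave -0.0229 for Sox9, replicates 1 and 2 alone gave -0.10 for Sox9 and 0.17 for Tcf21, replicates 3 and 4 alone gave 0.055 for Gata6, and the block of 2 sets gave 0.0255 for Tcf21. Leaving out 1 array gave -0.14 to 0.0129 for Gata4, -0.20 to 0.13 for Nr5a1 and -0.24 to 0.10 for Tcf21 in SV against ST, -0.0662 to 0.15 for Wt1 and -0.16 to 0.18 for Tcf21 in RT against ST, and -0.10 to 0.18 for Sox9 and -0.22 to 0.0823 for Tcf21 in SV against RT. The smooth muscle gene Actg2, called lower in RT, was at 0.0745 in replicates 3 and 4 alone. For the Sertoli products, the count lower in SV was 2 by the methods' t-test without adjustment, with the replicate block, and without SV replicate 3, and 1 without RT replicate 3. Of the partners, 1 was higher in SV than in RT without RT replicate 1 or without SV replicate 3, in place of 2.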
